A study of Mus musculus with 6 samples.

Results

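The thin filament genes Actc1, Acta1, Tnnt2, Tnnt1, Tnni3, Tnni1, Tnnc1, Tpm1, Lmod2 and Tmod1 were examined, 10 of 21887 protein-coding genes, each over its RefSeq gene body plus 10 kb on each side in the build mm10. They were listed by name as the actin, troponin, tropomyosin and filament-end genes of striated muscle. H3K27ac, an acetylation of histone H3 that marks promoters and enhancers in use, was mapped by CUT&RUN, in which an antibody directs a nuclease to cut out the marked chromatin. The nuclei came from the left ventricle of FVB mice of 8 to 12 weeks and had been sorted with an antibody to PCM-1, which labels cardiomyocyte nuclei. One group was labelled WT, read here as wild type, and the other HOM, from mice in which CRISPR had removed Nppa and Nppb together, which encode cardiac natriuretic peptides. Each group had 3 libraries. The labels give neither the sex nor the number of mice per library, nor whether any 2 libraries shared a mouse. The growth protocol also names Myh6-MerCreMer, nTnG and Sun1/sfGFP lines, without saying whether the mice used here carried them.

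The thin filament is a polymer of actin along which tropomyosin lies, with 1 troponin complex at regular steps. Troponin C binds calcium, troponin I holds the filament off without calcium, and troponin T ties the complex to tropomyosin. Hearts switch isoforms in development: skeletal α-actin (Acta1) and slow skeletal troponin I (Tnni1) are abundant in the fetal heart and give way to cardiac α-actin (Actc1) and cardiac troponin I (Tnni3). The slow skeletal troponin T gene is Tnnt1 and the cardiac one is Tnnt2.

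The 6 peak lists were of very unequal length, from 1462 peaks in HOM replicate 2 to 106605 in WT replicate 3, and covered 0.296 to 55.7 Mb. Read counts are not part of the lists, and sequencing depth is therefore unknown. Where 6 values are listed below, they run through WT replicates 1, 2 and 3 and then HOM replicates 1, 2 and 3. Between the outer ends of Nppb and Nppa (147985786 to 148002074 of chromosome 4) peaks covered 321, 734, 2175, 0, 0 and 0 bp, and Nppa itself held no peak in any library. Where the deletion begins and ends is not stated. A window was counted as acetylated when at least 1 bp of a peak lay in it. HOM replicate 2 had a peak in the windows of 2.44% of all protein-coding genes and in 0 of the 10 windows here, so its zeros are given but say little. Of 8 cardiomyocyte markers such as Myh6 and Ryr2, all 8 had a peak in the other 5 libraries and 0 in HOM replicate 2. Of 7 fibroblast markers, 1 had a peak in WT replicate 3 and 0 in each other library, with Col1a1, Col1a2 and Col3a1 at 0 throughout. Peaks lay at 1, 3, 4, 1, 0 and 1 of 6 endothelial markers, at 2, 3, 5, 3, 0 and 1 of 6 smooth muscle and pericyte markers, at 1, 2, 2, 2, 0 and 2 of 6 immune markers and at 1, 2, 3, 1, 0 and 1 of 6 fast skeletal markers. Among the immune markers only Cd68 and Spi1 had peaks. The fast skeletal marker with peaks in WT replicate 1 and HOM replicates 1 and 3 was Ckm, while Myh1, Myh2 and Myh4 had none in any library. The part of these markers in the results was not tested.

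Within 10 kb, acetylation lay at 8 of the 10 genes and at neither Acta1 nor Tnni1. With 20 kb on each side, 10 genes had a peak in WT replicates 2 and 3 and 9 in HOM replicate 1, while the count was still 8 in WT replicate 1 and HOM replicate 3 and 0 in HOM replicate 2. The 8 had peaks in each of the 5 libraries other than HOM replicate 2, as did 16.5% of all protein-coding genes. The share of all protein-coding genes with a peak in the window was 26.2%, 50.8%, 60.4%, 40.6%, 2.44% and 20.5%. No peak in any library was found for 37.9% of all protein-coding genes, so the empty windows of Acta1 and Tnni1 are not rare. The 10 windows held 46, 142, 191, 95, 0 and 31 peaks, with peaks shared by overlapping windows counted in each.

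The upstream sequences of the actin pair are shown because both carry the serum response element known from muscle actin genes, while peaks lay at only 1 of the 2. They are the 250 bases before the RefSeq start site (GRCm38.p6, the assembly that mm10 names; minus strand for both). Actc1 is at chr2:114052876-114053125 and Acta1 at chr8:123894776-123895025. Capitals mark, on either strand, the CArG box (the serum response factor site), the MEF2 site, CATTCC (bound by TEAD factors), GATAA (bound by GATA-family factors) and the TATA box, searched as TATAAA, with the start to the right of each sequence.
Actc1: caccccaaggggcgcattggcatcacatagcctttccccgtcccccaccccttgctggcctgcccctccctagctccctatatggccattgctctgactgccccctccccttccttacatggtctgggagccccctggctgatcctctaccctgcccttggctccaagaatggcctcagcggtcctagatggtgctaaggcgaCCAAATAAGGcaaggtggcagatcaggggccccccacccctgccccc
Acta1: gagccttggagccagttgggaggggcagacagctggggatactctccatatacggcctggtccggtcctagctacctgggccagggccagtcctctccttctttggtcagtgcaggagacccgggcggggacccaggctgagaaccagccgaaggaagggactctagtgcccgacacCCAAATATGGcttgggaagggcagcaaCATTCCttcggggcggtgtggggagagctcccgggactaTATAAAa

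A CArG box stood in 1.39% of the 17492 upstream windows of this length and in both actin genes, CCAAATAAGG from 47 to 38 bases before the start in Actc1 and CCAAATATGG from 73 to 64 bases before it in Acta1. No other of the 10 genes had one. Acta1 also held CATTCC, found in 11.6% of the windows, from 46 to 41 bases before its start. Its last match was TATAAA, found in 12.4%, from only 7 to 2 bases before the RefSeq start. None of the 10 windows held a MEF2 site, which 1.64% of the windows had. No 2 matches overlapped.

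Actc1, cardiac α-actin, carried a broad block of acetylation upstream of its start. Its window, positions 114047282 to 114052875 of chromosome 2 plus the flanks, held 6, 10, 14, 11, 0 and 3 peaks. Peaks covered 75.7, 256, 404, 171, 0 and 22.1 bp per kb of window. Among all protein-coding genes, 99.2%, 99.0%, 99.1%, 99.1% and 96.0% had a lower covered length per kb in the 5 libraries other than HOM replicate 2. Over all libraries, 84.4% of the covered length lay upstream of the gene, 15.6% in the gene and 0% downstream. Regions are unions of touching peaks of the 6 lists, so a library called in a region may have peaks in a small part of it. The region called in most libraries, positions 114054278 to 114058934, lay 1403 to 6059 bp before the start and overlapped the long noncoding RNA gene C130080G10Rik. It was called in 5 libraries. In WT replicate 3 a single peak of 4555 bp lay in it, with a fold enrichment of 14.3 over the background of that library, as set by the authors' peak caller. The strongest Actc1 peak stood at percentile 88.9, 95.6, 99.1, 98.5 and 61.6 of fold within its list in those 5 libraries. These percentiles describe each list and are not compared between lists. The gene body held no peak in WT replicate 1 and HOM replicate 3, the shorter lists, and 758, 2539 and 416 bp in WT replicates 2 and 3 and HOM replicate 1.

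Acta1, skeletal α-actin, had no peak in its window on chromosome 8 (gene at 123891758 to 123894775) in any of the 6 libraries. The nearest peak lay 19.1, 18.8 and 19.2 kb from the gene in WT replicates 2 and 3 and HOM replicate 1, beyond its end. In WT replicate 1 and HOM replicate 3 the nearest peaks were 87.1 and 88.4 kb away, and in HOM replicate 2 it was 373 kb away. Covered length per kb was higher at Actc1 than at Acta1 in 5 of 6 libraries and tied at 0 in HOM replicate 2 (two-sided exact sign-flip permutation p = 0.0625). That is the smallest p that 5 untied libraries can give. Acta1 is listed at 0, so no fold is given, and over the gene body alone Actc1 was higher in 3 libraries and tied in 3 (exact sign-flip permutation p = 0.25). This is 1 of 3 isoform pairs compared.

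**Figure D1:**
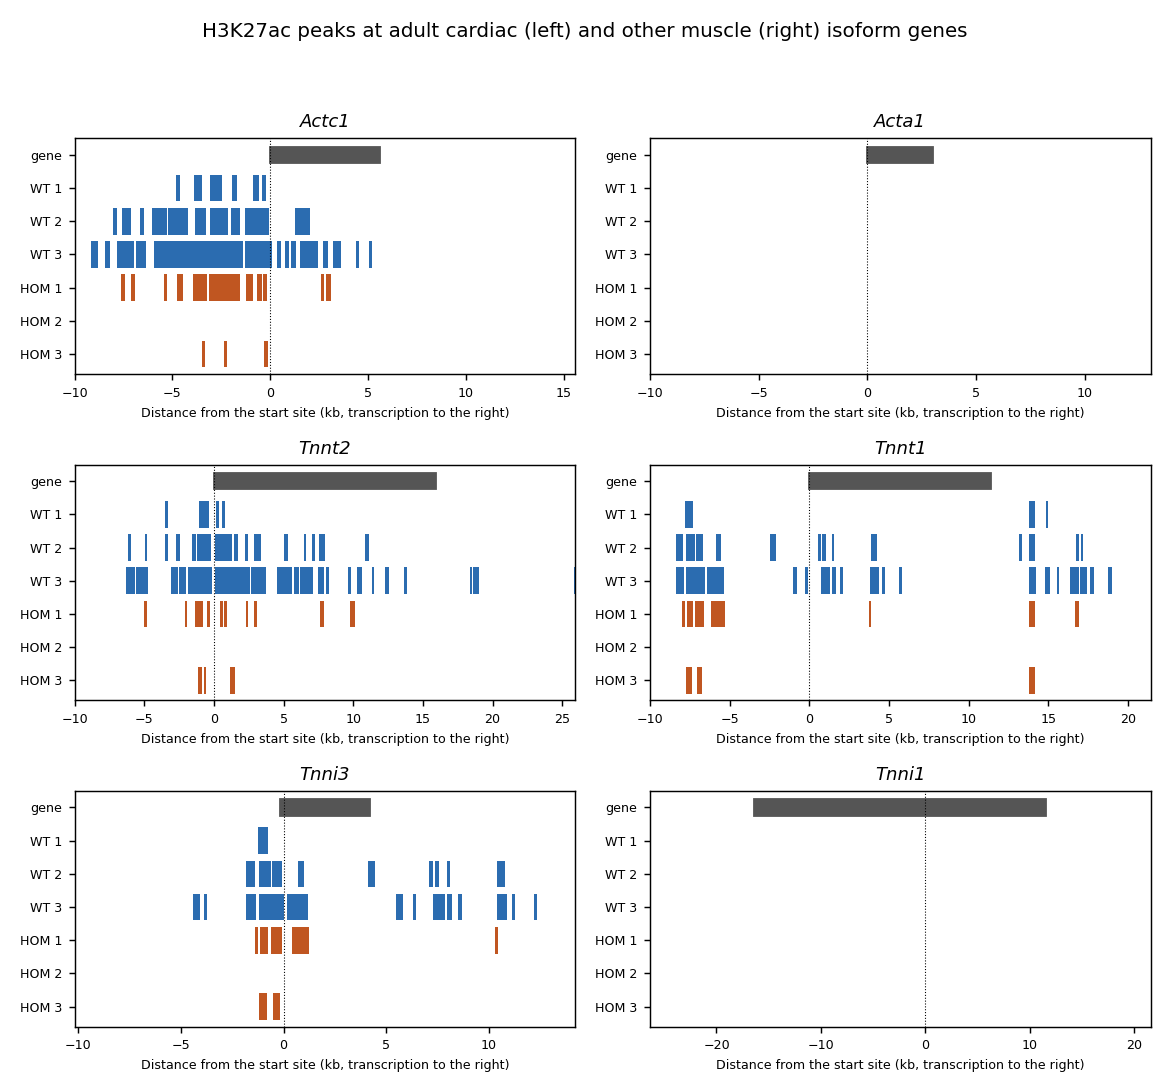
Peaks of each library (rows; blue WT, orange HOM) along 6 gene windows, with the distance from the RefSeq start site in kb on the x axis and the annotated gene as a grey bar. Acta1 and Tnni1 are empty in all 6 libraries, Actc1 peaks lie mostly before the start, and the outer peaks of the Tnnt1 window lie outside that gene.

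Tnnt2, cardiac troponin T, was acetylated on both sides of its start and into the gene. Its window on chromosome 1 (gene at 135836315 to 135852268) held 4, 15, 20, 10, 0 and 3 peaks. The covered length was 39.1, 154, 349, 73.8, 0 and 23.1 bp per kb. Of all covered length, pooled over libraries, 58.5% lay in the gene, 38.8% upstream and 2.73% downstream. In WT replicate 1 and HOM replicate 3 more lay upstream, 994 and 492 bp, than in the gene, 412 and 340 bp. A region from position 135834461 to 135836149, ending 185 bp before the start, and another from 135836402 to 135838896, beginning 68 bp after it, were each called in 5 libraries. The strongest peak reached percentile 71.5, 97.5, 98.4, 80.6 and 76.8 of fold in the 5 libraries other than HOM replicate 2. In HOM replicate 1 this peak, at 135831284 to 135831525, lay in the neighbouring gene Lad1. The region ending 185 bp before the start reached percentile 72.6 in that library. Lad1 reaches into the window, so not all peaks upstream can be assigned to Tnnt2.

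Tnnt1, slow skeletal troponin T, had a window that other genes filled. Tnni3 lies just upstream of it on chromosome 7, and Ppp1r12c just beyond its end, so the windows of Tnnt1 and Tnni3 share peaks. The window held 3, 13, 18, 7, 0 and 3 peaks. Of the covered length, 18.1% lay in Tnnt1 itself (4504569 to 4515975). The gene body held 0, 926, 1873, 166, 0 and 0 bp. The 2 regions of the window called in 5 libraries lay outside the gene: one at the start of Tnni3, 6553 to 7784 bp before the start of Tnnt1, and one at 4501744 to 4502206 in Ppp1r12c.

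Over the windows Tnnt2 and Tnnt1 did not differ beyond the spread between libraries, with 39.1, 154, 349, 73.8, 0 and 23.1 bp per kb at Tnnt2 and 31.7, 128, 238, 87.5, 0 and 35.3 bp per kb at Tnnt1. Tnnt2 was higher in 3 libraries and lower in 2, and the mean difference on the log2 scale with 1 bp per kb added was 0.04 ± 0.41 (SD, n = 6; exact sign-flip permutation p = 0.8125). Over the gene bodies alone, an alternative that leaves out the shared flanks, the values were 25.8, 217, 485, 92.8, 0 and 21.3 bp per kb at Tnnt2 and 0, 81.2, 164, 14.6, 0 and 0 bp per kb at Tnnt1. Tnnt2 was then higher in 5 of 6 libraries, with 1 tie at 0, and the mean difference was 2.46 ± 1.86 (SD, n = 6; exact sign-flip permutation p = 0.0625, the smallest that 5 untied libraries allow). In the 2 libraries where only Tnnt1 was at 0 the size of this difference was set by the added constant. In the libraries where both gene bodies had peaks the differences were 1.41, 1.56 and 2.59.

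The upstream sequence of Tnnt2 is shown with that of Tnnt1, since regions called in 5 libraries flanked the start site of Tnnt2 and none lay near that of Tnnt1. They are chr1:135836084-135836333, plus strand, and chr7:4515976-4516225, minus strand, with capitals as for the actins.
Tnnt2: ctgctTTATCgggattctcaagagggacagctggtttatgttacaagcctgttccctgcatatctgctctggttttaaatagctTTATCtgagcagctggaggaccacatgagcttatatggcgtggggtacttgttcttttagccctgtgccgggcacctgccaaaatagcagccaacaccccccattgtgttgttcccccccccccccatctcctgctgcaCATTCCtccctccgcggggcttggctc
Tnnt1: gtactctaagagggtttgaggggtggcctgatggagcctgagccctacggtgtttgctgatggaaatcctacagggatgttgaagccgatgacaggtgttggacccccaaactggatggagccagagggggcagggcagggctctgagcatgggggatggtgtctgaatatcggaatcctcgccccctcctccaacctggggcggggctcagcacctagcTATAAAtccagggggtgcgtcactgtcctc

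Tnnt2 held CATTCC from 27 to 22 bases before its start, and the reverse complement of GATAA at 245 to 241 and 166 to 162 bases before it, a motif of 21.0% of all windows. Tnnt1 held TATAAA from 30 to 25 bases before its start and none of the other motifs. These matches are letters in the sequence, not measured binding.

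Tnni3, cardiac troponin I, was acetylated before its start. It lies at 4518305 to 4522718 of chromosome 7, and its window held 1, 9, 13, 5, 0 and 2 peaks. The covered length was 19.0, 125, 229, 87.5, 0 and 30.2 bp per kb. The region called in 5 libraries spanned 4522528 to 4523759, from the start to 1231 bp before it, and also overlapped the neighbouring gene Dnaaf3, so the mark cannot be assigned to 1 of the 2 genes. The start itself lay in a peak in WT replicate 3 alone, and the nearest peak edge before it was 769, 88, 75 and 170 bp away in WT replicates 1 and 2 and HOM replicates 1 and 3. In WT replicate 3 it held a peak of 14.3-fold enrichment, at percentile 99.1 of that list, and in HOM replicate 3 the strongest peak stood at percentile 92.3. A single peak, at percentile 55.3, made up the window in WT replicate 1.

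Tnni1, slow skeletal troponin I, had no peak in its window of 48.0 kb in any library. It lies on the same chromosome as Tnnt2, at 135783033 to 135810989, and its nearest peaks were 21.8, 19.2, 19.0, 20.3, 554 and 24.2 kb beyond its end. Those of the WT libraries and HOM replicate 1 lie in the neighbouring gene Lad1, and that of HOM replicate 3 just before Tnnt2, so these 5 lie within the window of Tnnt2. Tnni3 had more covered length per kb than Tnni1 in 5 of 6 libraries, with a tie at 0 in HOM replicate 2 (exact sign-flip permutation p = 0.0625, the smallest possible with 5 untied libraries). Over the gene bodies alone it was higher in 4 libraries and tied at 0 in 2 (exact sign-flip permutation p = 0.125). In HOM replicate 3 the Tnni3 gene body held only 21 bp, the edge of a peak lying before the start site used.

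Tnnc1, the troponin C gene of cardiac and slow skeletal muscle, was acetylated before its start and within the gene. Its window on chromosome 14 (gene at 31208312 to 31211729) held 5, 9, 11, 6, 0 and 3 peaks, covering 47.0, 219, 312, 82.9, 0 and 31.8 bp per kb. Peaks upstream made up 47.0% of the covered length, peaks in the gene 42.1%. The genes Nisch and Sema3g also reach into the window, so peaks outside the gene cannot be assigned to Tnnc1 alone. One region, with peaks in 5 libraries, ended 53 bp before the start. Within the gene of 3418 bp, peaks covered 398, 2380, 3173, 660, 0 and 225 bp, so nearly the whole gene was covered in WT replicate 3 and a small part of it in WT replicate 1 and HOM replicates 1 and 3. The strongest peak stood at percentile 82.3, 92.5, 97.1, 96.8 and 76.8 of fold in the 5 libraries other than HOM replicate 2. In HOM replicate 1 this peak lay at 31205197 to 31205552, upstream of the gene. The region ending 53 bp before the start reached percentile 95.4 in that library.

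Tpm1, α-tropomyosin, was covered mainly inside the gene in WT replicates 2 and 3 and HOM replicate 1, and little in the short lists. It lies at 67022590 to 67049672 of chromosome 9, and its window held 2, 23, 28, 9, 0 and 1 peaks. The covered length was 11.3, 168, 330, 46.6, 0 and 9.54 bp per kb. Pooled over libraries, 77.3% of this length lay within the gene. The peaks of the window had a median width of 223 bp in WT replicate 2 and 391 bp in WT replicate 3. The medians over the whole lists were 286 and 291 bp. In WT replicate 1 and HOM replicate 3 more lay upstream, 310 and 449 bp, than in the gene, 224 and 0 bp. The 1 region called in 5 libraries lay at 67049495 to 67050766, from 282 to 1553 bp before the start, and was all that remained in HOM replicate 3, as a peak of 449 bp at percentile 40.4.

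The 2 genes of the pointed filament end led the 10 by different measures. Lmod2 had the highest covered length per kb, and Tmod1 the most peaks, in the longest window of the 10, at 97.1 kb. Lmod2 encodes leiomodin-2, which promotes growth of the filament at that end. Its window on chromosome 6 (gene at 24597771 to 24605414) had the highest covered length per kb of the 10 in each of the 5 libraries with peaks there, at 99.5, 501, 772, 301, 0 and 67.6 bp per kb over the 6. Between 99.5% and 99.99% of all protein-coding genes had a lower value in these libraries. Its covered length lay downstream more than in the gene or upstream, as at no other of the 10, with 42.6% there against 31.0% in the gene and 26.4% upstream. In all, 4 regions were called in 5 libraries. One ran from 24608685 to 24615657, between Lmod2 and Wasl and into the end of Wasl, and included a peak of 6900 bp in WT replicate 3. The others ended 43 bp before the start, lay 9251 to 12988 bp before it, and lay in the gene between 599 and 6103 bp after it. At the downstream region the strongest peak stood at percentile 71.5, 98.7, 99.7, 96.8 and 95.3 of fold in the 5 libraries other than HOM replicate 2.

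Tmod1 encodes tropomodulin-1, which caps the pointed end. Its gene is the longest of the 10 (46038940 to 46116032 of chromosome 4), and it held the most peaks, 16, 41, 63, 31, 0 and 10. The covered length was 55.9, 218, 384, 110.2, 0 and 32.7 bp per kb. This was less than at Actc1 in the WT libraries and HOM replicate 1, and more in HOM replicate 3. Nearly all of the covered length, 95.7%, lay in the gene. Peaks in 5 libraries fell in a region around the start, from 1003 bp before it to 4744 bp after it, and in one inside the gene, from 25163 to 28280 bp after the start. A peak lay on the start itself in WT replicate 2 alone, and HOM replicate 3 had no peak in the 10 kb before the gene. The inner region had the strongest peak of the window in WT replicates 1 and 2 and HOM replicate 1, and its percentiles of fold were 98.6, 96.7, 95.1, 95.4 and 92.3 in the 5 libraries other than HOM replicate 2.

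**Figure D2:**
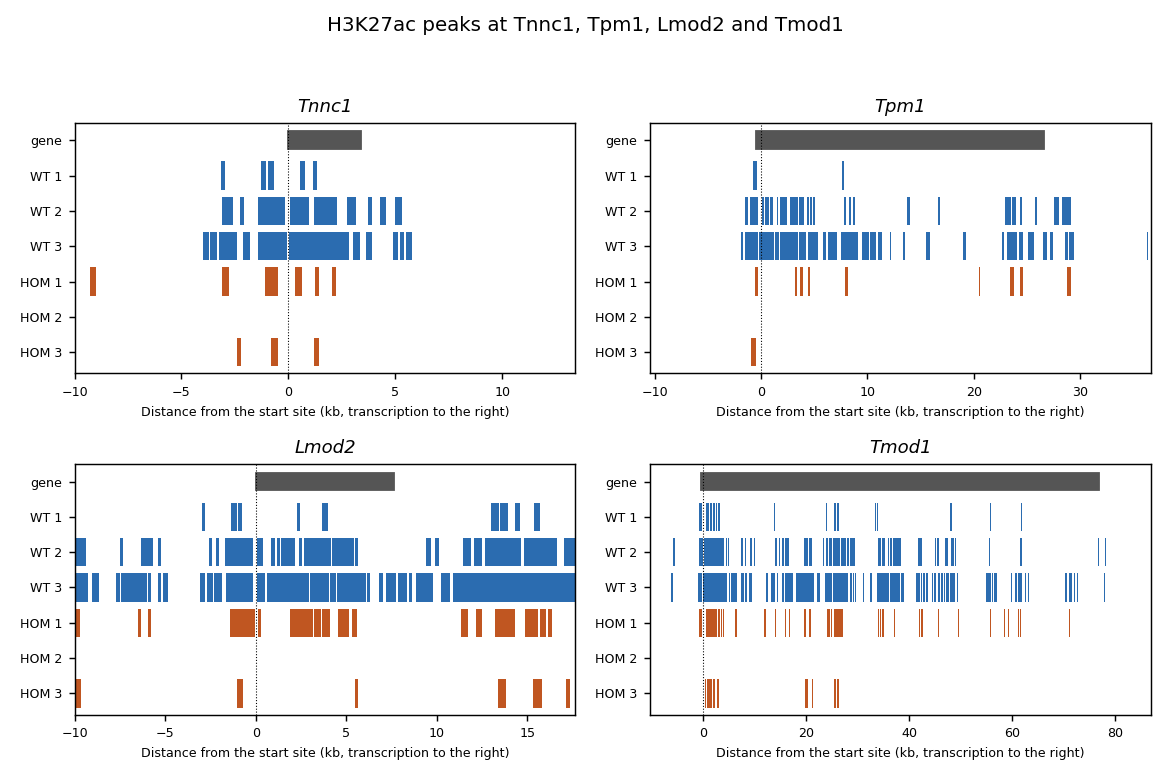
Peaks of each library (rows; blue WT, orange HOM) in the windows of Tnnc1, Tpm1, Lmod2 and Tmod1, with the distance from the start site in kb on the x axis and the annotated gene as a grey bar. Lmod2 has peaks on both sides and beyond its end, and Tmod1 peaks lie mostly inside the gene.

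The covered length per kb thus ran, from the highest, Lmod2, Actc1, Tmod1, Tnnt2, Tpm1, Tnnc1, Tnnt1 and Tnni3 in WT replicate 3, and Lmod2, Tnnt1, Tmod1, Tnnc1, Tnni3, Tnnt2, Actc1 and Tpm1 in HOM replicate 3. Lmod2 came first in all 5 libraries with peaks, while the order of the others was not the same between libraries. The median of the 10 genes was 35.4, 161, 321, 85.2, 0 and 26.7 bp per kb. Protein-coding genes with at least 1 peak had medians of 9.04, 21.2, 34.6, 14.3, 1.22 and 8.01 bp per kb.

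**Figure D3:**
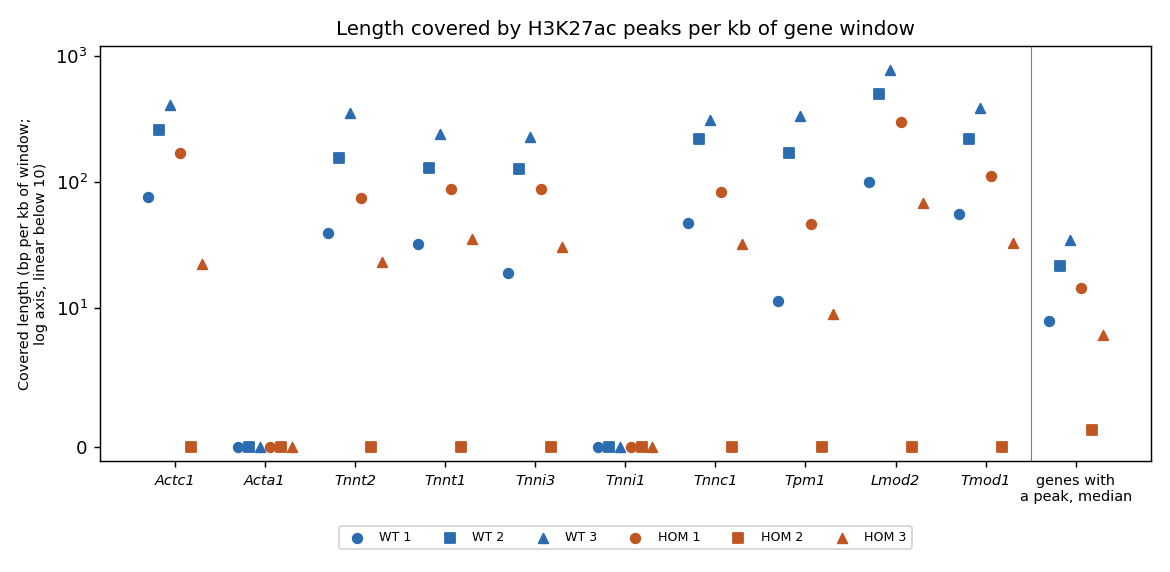
Covered length in bp per kb of window (y axis, logarithmic above 10 and linear below) for the 10 genes and, at the right, the median of all protein-coding genes with a peak, with 1 point per library (blue WT, orange HOM). Lmod2 lies highest in the 5 libraries with peaks, Acta1 and Tnni1 lie at 0, and at 6 of the 8 genes with peaks the libraries follow the order of their list lengths.

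Many start sites, of these and of all genes, lay bare between flanking peaks. Where a library had peak bases within 1 kb on both sides of a start site, the start itself lay outside a peak for 3 of 3, 5 of 6 and 5 of 8 of these genes in the WT libraries and for 5 of 5 in HOM replicate 1. Over all start sites of protein-coding genes with such flanking peaks the share was 66.5%, 69.1%, 57.6% and 71.2% in the same libraries, and no difference between these genes and the rest was tested. At Tnnt2 the start was bare in each of the 5 libraries with peaks there, with the nearest peak edges 185 to 333 bp before it and 68 to 138 bp after it in the WT libraries. At Lmod2 the edges in WT replicates 2 and 3 and HOM replicate 1 lay 124, 130 and 43 bp before and 60, 68 and 133 bp after the start. The start of Actc1 was covered in WT replicate 3 alone. Averaged over the 8 genes with peaks, the 100 bp after the start were covered to 0%, 25.8%, 47.9%, 0%, 0% and 0%. The highest covered share before the start was 57.9%, 87.5%, 100%, 74.9%, 0% and 47.5%, within 1 kb of it.

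**Figure D4:**
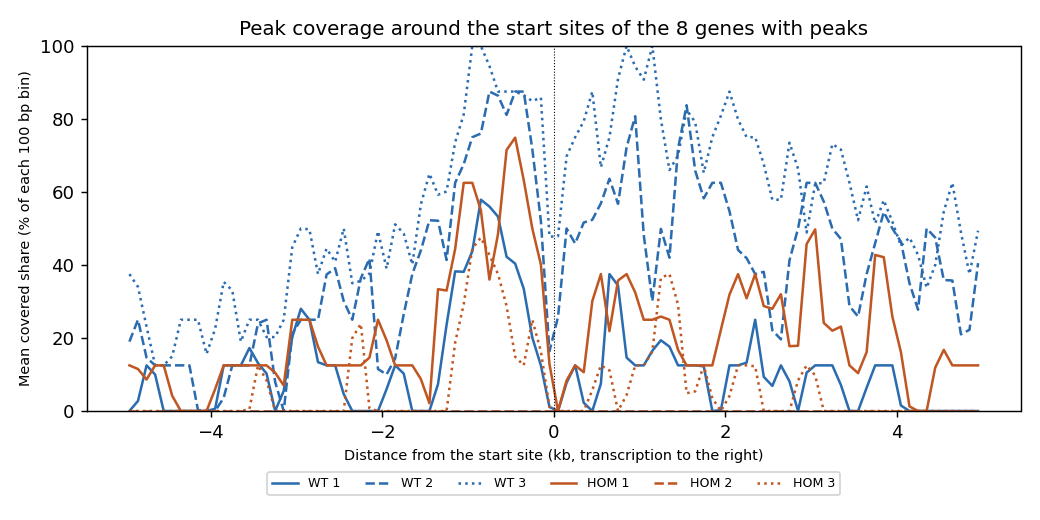
Mean share of each 100 bp bin covered by peaks (y axis, %) against the distance from the start site (x axis, kb) for the 8 genes with peaks, with 1 line per library (blue WT, orange HOM). Coverage is high in the kilobase before the start and drops at the start in each of the 5 libraries with peaks.

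The genotypes were compared by the length covered at each gene per Mb called genome wide in the same library, which takes out list length to a first order only. A two-sided exact permutation test of 3 libraries against 3 cannot go below p = 0.1. As the source of each library is not labelled, p-values cover only differences among these samples, and that variation can be technical. With all libraries the groups did not separate at any of the 10 genes. All HOM values lay below all WT values for 5.32% of protein-coding genes and above them for 0.164%, and for 0 of the 10 genes either way. As HOM replicate 2 was at 0 at each of the 10 genes, HOM above WT could not occur at any of them. At Acta1 and Tnni1, at 0 in every library, neither direction could occur. No protein-coding gene had an adjusted p at or under 0.05 (0%), which this design cannot reach.

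Tmod1 took 811, 671, 669, 622, 0 and 699 bp per Mb. Lmod2 took 411, 438, 383, 484, 0 and 412 bp per Mb. At both genes HOM replicates 1 and 3 lay among or near the WT libraries and HOM replicate 2 was at 0. On the log2 scale with 10 bp per Mb added, the difference HOM minus WT at Lmod2 was -1.72 with all libraries (exact permutation p = 0.9, adjusted 1) and 0.12 without HOM replicate 2 (exact permutation p = 0.4). At Tmod1 the mean was 9.50 ± 0.16 for WT against 7.37 ± 3.50 for HOM on this scale (SD, 3 libraries each), so the spread of HOM exceeded the difference. The differences with all libraries ran from -2.13 at Tmod1 to -0.67 at Tnni3, and without HOM replicate 2, whose values were 0, they ran from -0.63 at Tpm1 to 0.64 at Tnni3. Values without that library follow.

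Actc1 took 289.6, 207 and 186 bp per Mb against 254 and 125 bp per Mb in the WT libraries and the 2 HOM libraries left, a difference of -0.31 (exact permutation p = 0.5). Tnnt2 took 210.1, 175 and 225 bp per Mb against 154 and 183 bp per Mb in the WT libraries and the 2 HOM libraries left, a difference of -0.25 (exact permutation p = 0.3). At Tnnc1 the difference was -0.15 (exact permutation p = 0.6) and at Tmod1 it was -0.11 (exact permutation p = 0.6). Tpm1 took 79.8, 251 and 279 bp per Mb against 127 and 98.9 bp per Mb in the WT libraries and the 2 HOM libraries left, and its difference of -0.63 (exact permutation p = 0.4) lay within the spread of the WT libraries. The groups overlapped at each of these genes. With the 5 lists cut to an equal number of peaks, the differences were -0.57 at Actc1, -0.54 at Tnnt2 and -0.22 at Tnnc1. They were -0.32 at Tmod1 and -1.09 at Tpm1. The exact permutation p was 0.3 at Tnnt2 and Tpm1 and 0.4 at Actc1, Tnnc1 and Tmod1. The cut lists still covered from 4.54 Mb in HOM replicate 3 to 24.2 Mb in WT replicate 3, so only the number of peaks was made equal.

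Tnni3 and Tnnt1, which share most of their windows, had all HOM values above all WT values when HOM replicate 2 was left out. Tnni3 took 69.2, 96.9 and 100.3 bp per Mb against 124 and 162 bp per Mb in the WT libraries and the 2 HOM libraries left, a difference of 0.64 (exact permutation p = 0.1, the smallest possible). Tnnt1 took 149, 128 and 134 bp per Mb against 160 and 244 bp per Mb in the WT libraries and the 2 HOM libraries left, a difference of 0.50 (exact permutation p = 0.1, the smallest possible). Without that library 2.7% of protein-coding genes lay higher in HOM in this way and 5.5% lower. Within the Tnnt1 gene body the difference was -0.88 (exact permutation p = 0.5), opposite in direction to the whole window. Within the Tnni3 gene body it was 0.61 (exact permutation p = 0.6), and with 1 kb on each side 1.19 (exact permutation p = 0.1). With the 5 lists cut to 15184 peaks each, the differences were 1.30 at Tnni3 and 1.15 at Tnnt1 (exact permutation p = 0.2 at both).

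The numbers of peaks on the Y chromosome set WT replicate 1 and HOM replicate 1, with 149 and 156, apart from the other 4 libraries, with 18 to 44. As a share of the list, however, HOM replicate 2 had the most, at 1.30%, beside 0.698% in WT replicate 1, 0.324% in HOM replicate 1 and 0.0413% to 0.119% in the others, so it is put in neither set. The labels give no sex. Between these 2 libraries the difference HOM minus WT at Tnni3 was 0.76, and between HOM replicate 3 and the mean of WT replicates 2 and 3 it was 0.67. At Tnnt1 the values were 0.09 and 0.85. The direction differed between the 2 comparisons at Tpm1 (0.61 and -1.33), Tnnc1 (-0.51 and 0.16) and Tmod1 (-0.38 and 0.06). Their part in the results was not tested. The median over the 8 genes with peaks was -0.13 without HOM replicate 2, beside 0.08 over the 3621 protein-coding genes with a peak in each of the other libraries.

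**Figure D5:**
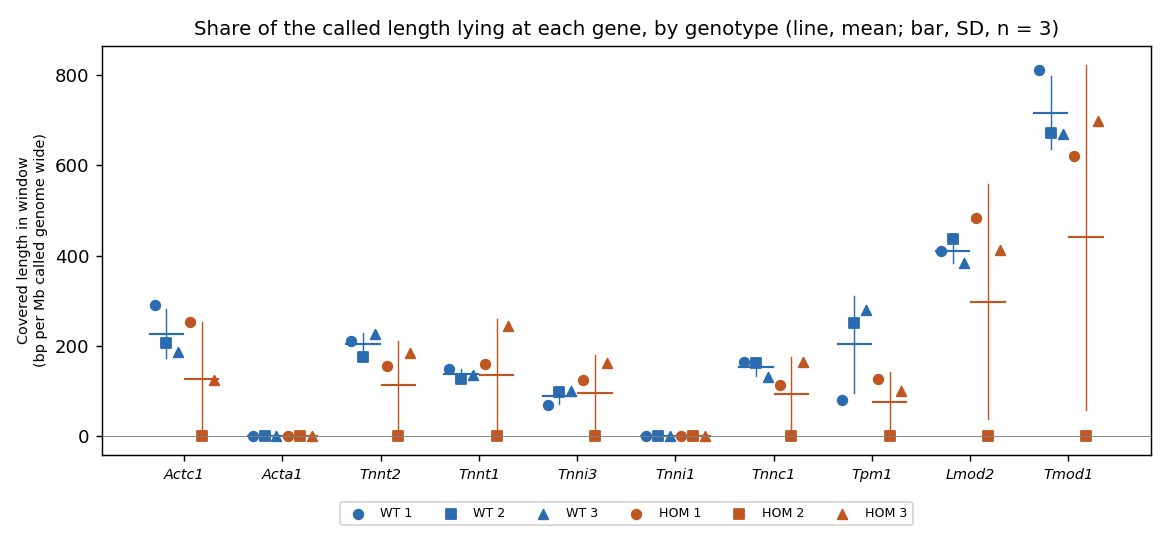
Length covered at each of the 10 genes per Mb called genome wide in the same library (y axis, bp per Mb), with 1 point per library, lines for group means and bars for the SD (n = 3; blue WT, orange HOM). HOM replicate 2 lies at 0 at every gene, and HOM replicates 1 and 3 both lie above the WT points at Tnnt1 and Tnni3.

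Of 24 other genes of the thin filament and its attachments, 14, 20, 22, 18, 2 and 11 had a peak. A peak in at least 5 libraries was found at 11 of them, beside 16.7% of all protein-coding genes. These were the cytoplasmic actins Actb and Actg1, Lmod3 and Tmod4, which are paralogues of Lmod2 and Tmod1 known from skeletal muscle, the nebulette gene Nebl, the formin gene Fhod3, the capping protein genes Capza1 and Capzb, the cofilin gene Cfl2, Cap2 and the α-actinin gene Actn2. Neighbouring genes inside the windows of these 24 genes are not given here, so a peak need not belong to the gene named. Fhod3, a formin that elongates cardiac actin filaments, held 59, 134, 177, 105, 3 and 34 peaks. It and Capzb were the 2 genes with a peak in HOM replicate 2. Lmod3 was covered to 43.9, 221, 285, 98.1, 0 and 31.5 bp per kb. Lmod1 and Tmod2, known from smooth muscle and brain, had no peak in any library. The remaining isoform genes are given as relatives of the 10 and were picked with their values seen. The fast skeletal troponin genes Tnnt3, Tnnc2 and Tnni2 had peaks in 4, 3 and 1 libraries, and no more than 93.8 bp per kb in any library, the value of Tnnc2 in WT replicate 3. The tropomyosin genes Tpm2, Tpm3 and Tpm4 had peaks in 3, 2 and 1 libraries, against 5 for Tpm1. Of the smooth muscle actins, Acta2 had peaks in WT replicates 2 and 3, at 48.4 and 73.6 bp per kb, and Actg2 had peaks in 4 libraries, at 4.71, 13.0, 55.3, 34.7, 0 and 0 bp per kb.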

How the data were processed

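One H3K27ac CUT&RUN peak list was analysed for each of 6 libraries. BWA, MACS2 and the build mm10 are named in the submitters' processing notes; their versions, settings and roles are not given in the sources used here. For every peak the deposited lists give the authors' score, fold enrichment (a ratio), p-value and q-value (both as −log10) and summit offset. They were used only within a list. Percentiles of fold use the mean rank of ties. The lists hold no counts, so no interval from depth can be given.

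Gene bodies were taken from RefSeq annotation (GRCm38.p6, 10 of 10 genes matched) and start sites, strands and upstream sequences from RefSeq promoters, with the first listed start used. Peaks were united per library, covered length was cut at the window ends, and touching peaks of the 6 lists were merged into regions. The named region of a gene is the one called in most libraries, with ties broken by mean percentile of fold. Exact permutation tests used the 20 assignments of libraries, run for all 21887 protein-coding genes with Benjamini-Hochberg adjustment. Isoform pairs used exact sign flips over 6 libraries, and the 3 p-values were not adjusted. The members, gene lists and pairs were chosen with earlier results of these data known, and the windows tried without HOM replicate 2 were added after the data were seen. Scripts were tested on simulated data with planted genes. Python 3.11.15, numpy 2.4.6, pandas 2.3.3 and matplotlib 3.10.9 were used.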

Additional observations from a re-analysis of the deposited data

How the results depend on the processing

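Of 156 values of a signed difference under an alternative, 143 kept their direction. Many of the 156 could not reverse, so this count does not measure stability. Acta1 and Tnni1 were at 0 in every library within 10 kb, so neither could come out above its partner. The replicate block returns the main difference by construction. Most genotype alternatives kept HOM replicate 2, whose zeros lower the HOM mean. With HOM replicate 2 tied at 0 or 3 libraries a group no p could fall under 0.05, so the threshold says nothing about stability. With 20 kb flanks the number of genes with a peak was 10 in place of 8 in WT replicates 2 and 3 and 9 in HOM replicate 1. The differences HOM minus WT reversed to positive at Tnnt1 and Tnni3 with the stronger 50% of each list (0.73 and 0.68), without HOM replicate 2 (0.50 and 0.64) and without it at equal list length (1.15 and 1.30). At Tnni3 they did so too without HOM replicate 2 over the gene body (0.61) and with 1 kb flanks (1.19), which were alternatives chosen after seeing the data. Lmod2 reversed without HOM replicate 2, to 0.12, to 0.024 at equal list length and to 0.11 with 1 kb flanks. Leaving out 1 library at a time gave -1.83 to 0.50 at Tnnt1, -1.42 to 0.64 at Tnni3, -2.69 to 0.12 at Lmod2, and -0.056 to 0.17 for Tnnt2 minus Tnnt1, which was -0.0045 without WT replicate 1 and -0.056 without WT replicate 3. In WT replicate 1, 5 genes kept a peak in the stronger 50% of the list. The cause was not tested. With the replicate number as a replicate block the differences equal those without it by construction, such as -1.72 at Actc1. Its exact sign-flip permutation p was 0.25, the smallest possible, so no call could be made or changed. Deviations of same-numbered libraries from their group means correlated at -0.064, -0.071 and -0.233 across genes. The HOM means include HOM replicate 2, with a peak at only 2.44% of genes. These correlations therefore cannot show whether same-numbered libraries were paired. Unknown depth and unequal lists limit all values.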
